A study of Temora longicornis with 12 samples.

Results

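The transcripts described here were those whose level in all 3 libraries of the recovery group lay outside the range of the other 9 libraries of a heat experiment on the copepod Temora longicornis. They were chosen by their level in CPM, the read count of a transcript divided by the library total and multiplied by 1000000. The total left out 1 transcript, TRINITY_DN157064_c6_g3_i1, which took the largest and a very uneven share of the reads. A transcript was kept where its mean over the 12 libraries was at least 1 CPM, where the 3 recovery libraries were all above or all below the 9 others, and where the mean of the 3 differed at least 1.5-fold from the mean of the 9. Of 44985 transcripts, 31102 reached 1 CPM and 110 of these met the rule. In the recovery group 40 were higher (0.129% of the 31102) and 70 were lower (0.225%). These values chose the members, so the separation of the recovery group is given as a description.

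Temora longicornis is a small planktonic crustacean of shelf seas, and as an ectotherm it takes the temperature of the water around it. Animals that are warmed commonly make more heat shock proteins, the chaperones that refold damaged proteins, and change the expression of metabolic and cuticle genes. After a return to the cooler temperature such transcripts can go back to the earlier level, stay shifted, or pass beyond it. The table analysed here names transcripts by assembly identifier alone, so no function and no gene position is given for any of them.

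The animals were whole adults kept in aerated vessels in the dark for 120 h. Controls were held at 14 °C for all 5 days. Acute animals were held at 14 °C for 4 days and moved to 17 °C for the final 24 h. Sustained animals were brought to 17 °C over 24 h and never returned, whereas recovery animals had the same warming but were moved back to 14 °C for the final 24 h. Of 4 replicates per group, 3 were sequenced, and the labels give neither the number nor the sex of the animals in a library. A level in whole animals cannot tell fewer cells of a type from less RNA per cell.

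The total count per library ranged from 11582848 to 32504862, and from 8659487 to 23838612 without TRINITY_DN157064_c6_g3_i1. A single count was worth from 0.042 to 0.115 CPM, the latter in control replicate 2, the shallowest library. The transcript left out of the totals took 53.1%, 47.2% and 19.3% of the counts in the 3 recovery libraries and at most 43.8% in any other library. When the totals included it, the median transcript was lower in recovery by a log2 ratio of -0.42, and the same rule then gave 0 higher and 474 lower transcripts, so that the share of lower ones went from 63.6% to 100%. With the totals used here, the median log2 ratio of all transcripts was 0.01, and all ratios are read against it.

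The rule was next applied in the same way to each of the other labelled groups. The acute libraries were set apart for 154 transcripts, 67 higher (0.215% of the 31102) and 87 lower (0.28%). In the sustained group the rule gave 122, of which 50 were higher (0.161%) and 72 lower (0.231%). The control group had 116, with 36 higher (0.116%) and 80 lower (0.257%). The 110 of the recovery group were thus the smallest of the 4 counts, and at these settings more transcripts were lower than higher in each group. That direction was reversed for acute with no limit on the fold (168 higher and 134 lower), for sustained with no minimum level (129 and 118), and for acute (167 and 6) and control (72 and 1) with totals that include the abundant transcript. With 1 library left out it was reversed for recovery without its replicate 1 (209 and 206), and for sustained without its replicate 1 (504 and 383) or recovery replicate 3 (185 and 140). The recovery count was also the smallest when the level was scaled by TMM factors (111, against 124 to 152 elsewhere). It was not the smallest with a minimum of 5 CPM (25, against 20 in sustained, 30 in control and 46 in acute), with no limit on the fold (173, against 159 in control), or without acute replicate 2 (154, against 140 in control and 144 in sustained). With the totals that include the abundant transcript it was the largest. Each group's own count increased when 1 of its 3 libraries was left out, which made the rule easier to meet; for recovery it was then 415 to 670.

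**Figure D1:**
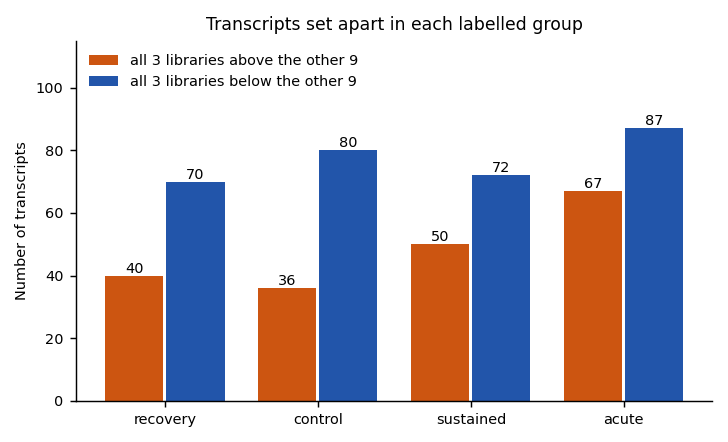
Number of transcripts whose 3 libraries all lie above (orange) or all below (blue) the other 9 libraries, with at least 1 CPM and a 1.5-fold difference of means, for each labelled group. Recovery has 40 and 70, and the highest bars are the 67 and 87 of the acute group.

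The requirement that the libraries should not overlap removed most transcripts with a large difference of means. A recovery mean at least 1.5-fold above that of the other 9 libraries was found for 700 transcripts, of which 40 were set apart (5.71%), and one at least 1.5-fold below for 1483, of which 70 were set apart (4.72%). At 4-fold or more, 0 of 9 higher and 1 of 83 lower transcripts were set apart. The members therefore had modest differences with little scatter among the recovery libraries. Their fold ranged from 1.51 to 2.70 with a median of 1.77 for the higher ones, and from 1.503 to 4.46 with a median of 1.90 for the lower ones, 9 and 26 of them reaching 2-fold. The median coefficient of variation over the 3 recovery libraries was 13% for the higher and 18.1% for the lower members, against 25% for all 31102 transcripts, as the rule favours.

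**Figure D2:**
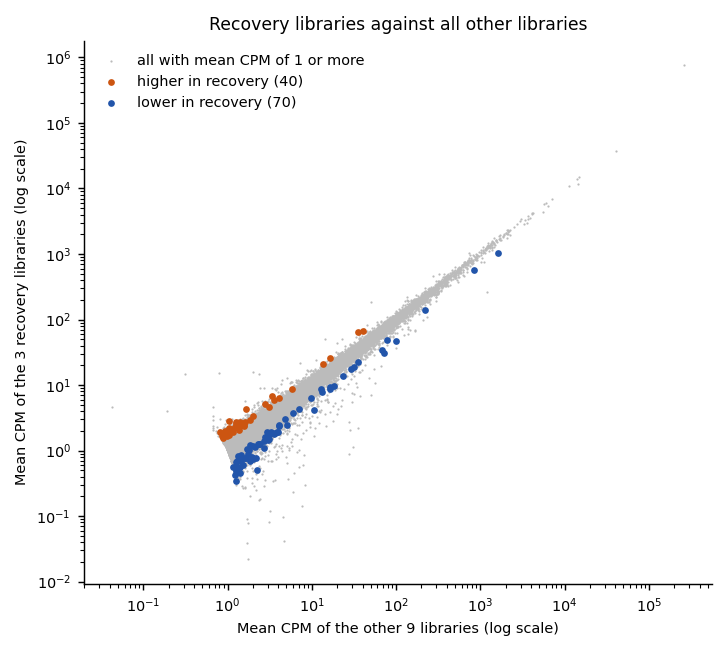
Mean CPM of the 3 recovery libraries against the mean of the other 9 libraries on log axes, for transcripts with a mean of at least 1 CPM (grey), members higher in recovery (orange, 40) and members lower in recovery (blue, 70). The members lie along the edges of the cloud, most of them at low levels, and many grey points lie farther from the diagonal; 2 transcripts with no recovery count are not drawn.

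Most members had few reads. The mean level was under 5 CPM for 35 of the 40 higher members (87.5%) and for 50 of the 70 lower members (71.4%), against 50.1% of all 31102 transcripts. The median count in a recovery library was 44.5 for the higher and 24 for the lower members. Transcript lengths were not used here, so levels are compared between libraries and not between transcripts.

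Among the members higher in recovery, the largest ratio was that of TRINITY_DN161230_c1_g1_i1, at 2.40, 3.26 and 2.74 CPM in the recovery libraries. It had 1.07, 0 and 0.61 CPM in the control libraries, 1.43, 0.50 and 1.53 in the acute and 1.18, 1.98 and 1.04 in the sustained libraries. The nearest of these was sustained replicate 2, and the mean was 2.70-fold higher in recovery. Its counts in the recovery libraries were 36, 56 and 57.

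TRINITY_DN183904_c0_g3_i1 was at 4.27, 4.54 and 4.22 CPM in recovery, a narrow range. It was at 3.50, 2.19 and 1.38 CPM in the control libraries, at 1.23, 1.76 and 1.71 in the acute and at 1.59, 0.82 and 0.67 in the sustained libraries. The order of the group means was recovery, control, acute and sustained, so recovery lay farthest from the sustained group, with which it shared the first 4 days. Recovery was 2.63-fold above the mean of the other 9 libraries.

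TRINITY_DN162129_c1_g1_i1 had another order, with the sustained group next to recovery. It was at 3.00, 2.56 and 2.50 CPM in recovery and at 1.72, 1.38 and 2.20 CPM in the sustained libraries. The control and acute libraries were lower, at 1.01 ± 0.11 and 1.04 ± 0.34 CPM (SD, n = 3 each). The fold over the other 9 libraries was 2.12.

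TRINITY_DN185529_c1_g28_i1 had the widest gap of the higher members, a log2 distance of 0.47 between the lowest recovery library and the highest other library after 0.1 CPM was added. Its recovery libraries were at 2.40, 1.86 and 1.58 CPM, and the 9 others ran from 0.53 CPM in acute replicate 3 to 1.12 CPM in control replicate 1. TRINITY_DN189445_c0_g7_i1 had almost the same level in the 3 recovery libraries, 2.60, 2.62 and 2.54 CPM, and at most 1.85 CPM elsewhere. The SD of its recovery level, 0.04 CPM, was below what counting error alone gives at counts of 39, 45 and 53, and so understates the spread. Such an SD below counting error was found for 22 of the 40 higher and 31 of the 70 lower members, against 11.6% of all 31102 transcripts, and the rule favours it.

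TRINITY_DN175267_c2_g4_i4 was at 6.80, 6.99 and 6.34 CPM in recovery. Control replicates 1 and 3 came next at 5.12 and 4.97 CPM, and all other libraries lay between 2.1 and 3.21 CPM. The fold over the 9 libraries was 2.01. The 2.15-fold difference of TRINITY_DN171676_c0_g2_i3 rested in part on low values in control replicate 2 (0.12 CPM, 1 count) and sustained replicate 2 (0.28 CPM, 5 counts).

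**Figure D3:**
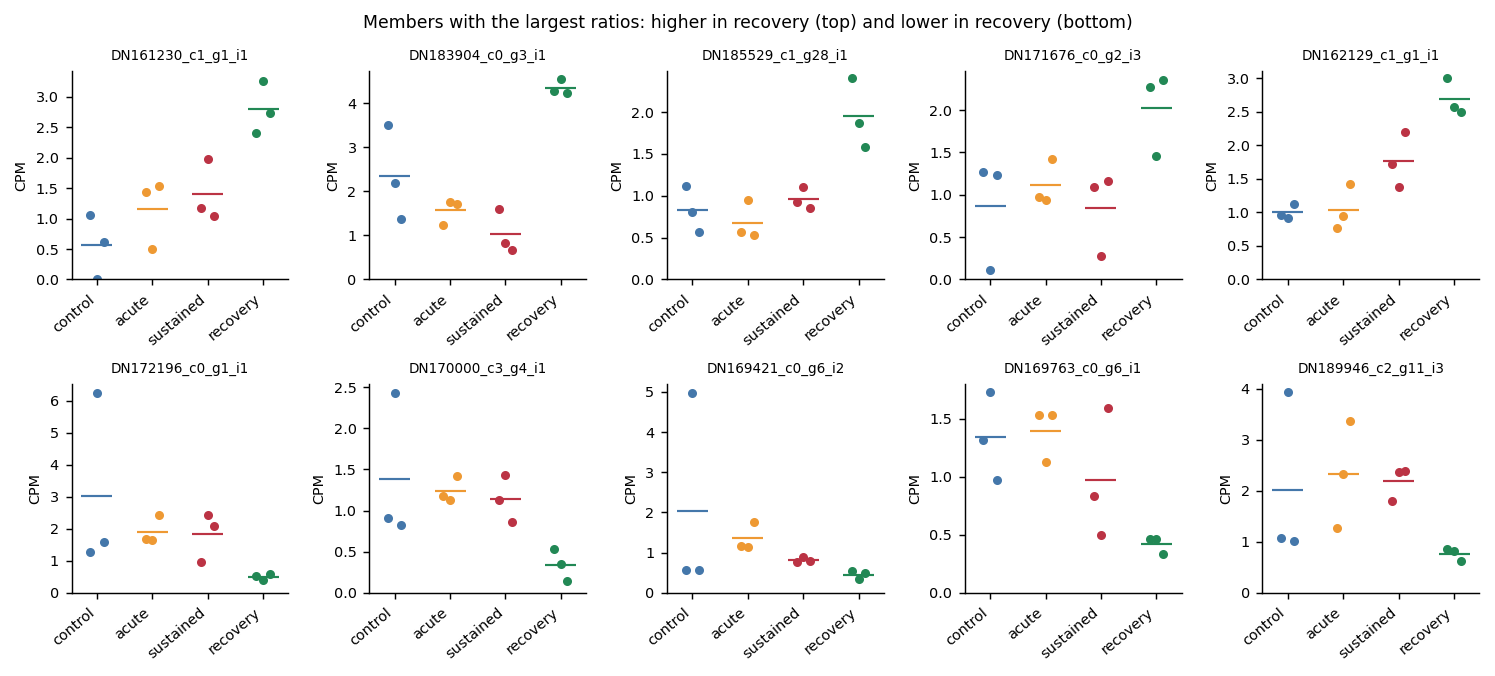
CPM in each library (points) and group mean (lines) of the 5 members with the largest ratios in each direction, higher in recovery in the top row and lower in the bottom row, each panel with its own axis from 0. All recovery points lie beyond the other 9, and in several lower members control replicate 2 is the highest point, as in TRINITY_DN172196_c0_g1_i1 at 6.24 CPM.

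The higher members with the most reads differed in how far they were separated. TRINITY_DN188965_c1_g1_i2 was at 61.5, 73.6 and 65.8 CPM in recovery and at 26.1 to 55.7 CPM elsewhere, a fold of 1.65. The control, acute and sustained means were within 2 CPM of each other, at 39.7 ± 2.91, 41.4 ± 14.8 and 40.8 ± 9.21 CPM (SD, n = 3 each). TRINITY_DN171058_c3_g16_i1 was at 71.2, 58.2 and 65.1 CPM in recovery and spread widely elsewhere, from 1.73 CPM in control replicate 2 to 55.4 CPM in sustained replicate 3. TRINITY_DN188990_c3_g1_i1, at 30.6, 24.7 and 23.4 CPM in recovery, was separated from sustained replicate 1 at 23.2 CPM by a log2 gap of only 0.01. The recovery libraries of TRINITY_DN173314_c0_g1_i1 were at 19.8, 23.6 and 19.7 CPM, and its highest other library was sustained replicate 2 at 16.7 CPM.

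Among the members lower in recovery, TRINITY_DN172196_c0_g1_i1 had both the largest fold and the widest gap. It was at 0.53, 0.41 and 0.58 CPM in recovery, from counts of 8, 7 and 12. It was at 1.27, 6.24 and 1.59 CPM in the control libraries, 1.69, 1.64 and 2.42 in the acute and 0.96, 2.42 and 2.08 in the sustained libraries. The fold was 4.46 against the mean of the 9 and 3.33 against their median, because control replicate 2 lay far above the rest.

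TRINITY_DN170000_c3_g4_i1 was at 0.53, 0.35 and 0.14 CPM in recovery, counts of 8, 6 and 3, and at 0.82 to 2.43 CPM elsewhere, with a fold of 3.67. TRINITY_DN169421_c0_g6_i2 was at 0.53, 0.35 and 0.48 CPM in recovery and at 4.97 CPM in control replicate 2, while control replicates 1 and 3 were at 0.56 CPM each, next to the recovery libraries. Its fold of 3.08 against the mean became 1.94 against the median of the 9 libraries. Control replicate 2 was the highest of the 9 in 26 of the 70 lower members and the lowest of the 9 in 16 of the 40 higher members. These are 37.1% and 40% of the members, against 25.5% and 22% of all 31102 transcripts.

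TRINITY_DN169763_c0_g6_i1 was at 0.47, 0.47 and 0.34 CPM in recovery. Sustained replicate 2 lay just above them at 0.50 CPM, and the other 8 libraries were between 0.84 and 1.73 CPM. TRINITY_DN189946_c2_g11_i3 was at 0.87, 0.82 and 0.62 CPM in recovery and had control replicates 3 and 1 next, at 1.02 and 1.07 CPM, with a fold of 2.82. TRINITY_DN185705_c0_g1_i1 was lower in recovery, at 0.53, 0.41 and 0.48 CPM, than in the control group, at 0.96 ± 0.19 CPM, and than in the acute and sustained groups, at 1.49 ± 0.23 and 1.52 ± 0.60 CPM (SD, n = 3 each).

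TRINITY_DN168883_c0_g1_i1 combined a wide gap with many reads. It had 36.1, 41.5 and 24.7 CPM in recovery, from 542, 712 and 515 counts. The control libraries were at 56.9, 54.9 and 64.5 CPM, the acute at 58.6, 61.8 and 67.6 and the sustained at 58.5, 82.5 and 105 CPM. The recovery libraries stayed apart from all others, with a log2 gap of 0.40 and a fold of 1.99. TRINITY_DN160871_c0_g1_i1 was at 63.2, 33.3 and 45.7 CPM in recovery, at 73.3 ± 5.11 CPM in the sustained group, at 96.1 ± 16.6 CPM in the acute group and at 127 ± 77 CPM (SD, n = 3 each) in the control group, whose replicate 2 was at 215 CPM.

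The 2 lower members with the most reads belonged to 1 assembly component, the set of related sequences that the assembler kept together. TRINITY_DN193151_c1_g10_i1 was at 900, 1144 and 1098 CPM in recovery and at 1194 to 2276 CPM elsewhere, a fold of 1.56. TRINITY_DN193151_c1_g8_i1 was at 492, 604 and 600 CPM in recovery and at 647 to 1261 CPM elsewhere, a fold of 1.51. Another transcript of the component, TRINITY_DN193151_c1_g2_i1, was also below all other libraries in recovery, at 647, 815 and 829 CPM against 865 to 1526 CPM, and missed the rule with a fold of 1.46. The 3 transcripts had the same extremes, recovery replicate 1 the lowest, acute replicate 1 the highest and sustained replicate 1 nearest to recovery. They were the only transcripts of the component with at least 1 CPM. Whether reads were shared among them was not tested. TRINITY_DN185838_c2_g3_i1, of another component, was at 133, 153 and 128 CPM in recovery and at 160 to 290 CPM elsewhere.

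A second component held 2 members, TRINITY_DN185416_c0_g17_i1 with a fold of 2.09 and TRINITY_DN185416_c0_g22_i1 with a fold of 1.71, both lower in recovery. All 5 transcripts of this component with at least 1 CPM had a lower mean in recovery than in the other libraries, with log2 ratios from -1.06 to -0.23. The 2 members among these 5 were lower by the rule, and TRINITY_DN185416_c0_g23_i1 and TRINITY_DN185416_c0_g23_i2 belonged to 1 assembled gene. The other 106 members came from as many components. The 110 members came from 110 different genes as the assembler defined them.

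The limit of 1.5-fold fell within a continuous range of values. Just inside it were TRINITY_DN164320_c0_g1_i1 (1.51-fold higher) and TRINITY_DN191339_c2_g23_i1 (1.53-fold higher), and TRINITY_DN179970_c0_g6_i1 and TRINITY_DN180728_c3_g7_i1 (1.503-fold and 1.504-fold lower). Just outside it were TRINITY_DN189986_c0_g8_i1 and TRINITY_DN186254_c5_g1_i1 (each 1.48-fold higher), TRINITY_DN193151_c1_g2_i1 (1.46-fold lower) and TRINITY_DN191803_c3_g4_i1 (1.46-fold lower). Without any limit on the fold, 86 higher and 87 lower transcripts were set apart in recovery. TRINITY_DN191339_c2_g23_i1 was the 1 member that was also set apart in another group: its acute libraries, at 1.07, 0.82 and 1.00 CPM, lay below all others.

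The gap between the recovery libraries and the nearest other library was often narrow. Its median was 0.07 on the log2 scale for the higher and 0.08 for the lower members, and it was under 0.1 for 25 of the 40 and 37 of the 70. It was over 0.5 for 0 higher and 2 lower members, TRINITY_DN172196_c0_g1_i1 and TRINITY_DN170000_c3_g4_i1. The 95% exact Poisson intervals, which cover counting error only, were compared between the nearest recovery library and the nearest other library. They overlapped for all 40 higher and for 66 of the 70 lower members. Such intervals are narrower, relative to the level, where reads are many. Their overlap was not counted for the transcripts set apart in the other groups. The 4 lower members whose intervals stood apart were TRINITY_DN168883_c0_g1_i1 (38.5 to 44.7 CPM in recovery replicate 2 and 50.03 to 60.02 CPM in control replicate 2), TRINITY_DN179613_c1_g2_i2 and both members of the component DN193151. When every library was thinned once at random to the smallest total, 10 of the 40 higher and 29 of the 70 lower members met the rule again. The draw included the abundant transcript, so it left 5430621, 6116072 and 9351254 other reads in the recovery libraries, against 6508138 to 11582400 in the 9 others. In the thinned libraries the rule gave 135 transcripts for recovery, 140 for control, 161 for sustained and 175 for acute. Most of the 135 were thus not members, and how many transcripts the other groups kept is not given here.

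By the rule, each recovery library lay beyond the others. Relative to the mean log2 level of the other 9 libraries, the higher members had a median deviation of 0.94, 0.95 and 0.85 in recovery replicates 1, 2 and 3, and the lower members of -0.93, -0.80 and -0.73. The other 9 libraries had medians between -0.30 in control replicate 2 and 0.39 in sustained replicate 1 for the higher members. For the lower members they ran from -0.19 in sustained replicate 1 to 0.20 in control replicate 2. Recovery replicate 3, with the smallest share of TRINITY_DN157064_c6_g3_i1 among the recovery libraries, was the recovery library nearest to the others in 17 of 40 higher and 34 of 70 lower members. How often it was the innermost recovery library over all transcripts was not counted. The part of TRINITY_DN157064_c6_g3_i1 in the pattern was not tested.

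**Figure D4:**
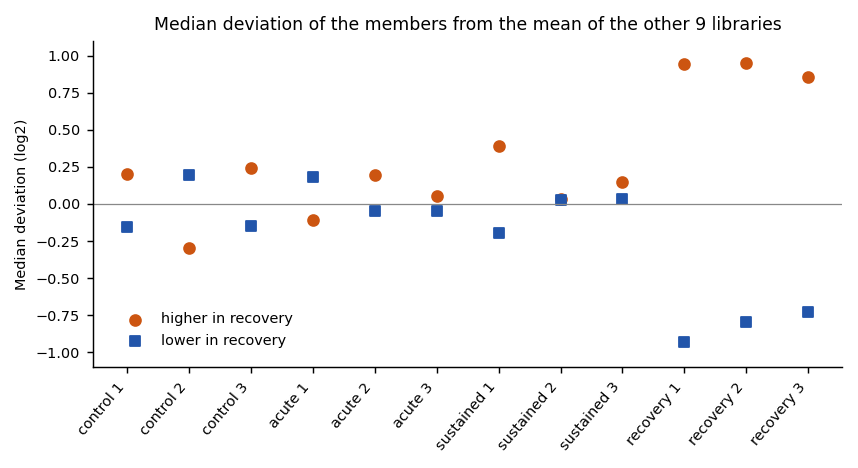
Median deviation of the 40 higher (orange circles) and 70 lower (blue squares) members from the mean of the other 9 libraries, in log2 units, for each of the 12 libraries. The recovery libraries lie between 0.85 and 0.95 and between -0.93 and -0.73, and sustained replicate 1 is the nearest other library on both sides.

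The library nearest to recovery was a sustained library in 21 of the 40 higher and 33 of the 70 lower members, a control library in 14 and 20, and an acute library in 5 and 17. Sustained replicate 1 alone was nearest in 11 and 15. How often each library was the outermost of the others over all transcripts was not counted, so these counts are a description only. The sustained group shared its first 4 days with the recovery group, and its mean was the highest of the 3 other groups in 19 of the 40 higher members (47.5%, against 32.1% of all 31102 transcripts). It was the lowest of the 3 in 31 of the 70 lower members (44.3%, against 34.9%).

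The direction of differences among the control, acute and sustained groups was not used to choose the members. Their size was limited by the rule, which kept all 9 libraries on 1 side of recovery and used their mean, so the values over all transcripts stand beside those of the members as a description. The median log2 ratio of sustained over control, with 0.1 CPM added, was 0.18 in the higher members, 27 of 40 having a higher sustained mean, and -0.07 in the lower members, 28 of 70. Over all 31102 transcripts it was 0.01, with 50.7% higher. Under other settings the rule was applied anew, so the medians there are of other sets of transcripts and not of these members. The median of the higher transcripts so chosen was not stable. It was -0.06 without control replicate 2 and -0.02 in thinned libraries, where 10 of the 40 higher members met the rule again. The lower transcripts chosen without control replicate 2 had a median of 0.09. For sustained over acute the medians were 0.17 in the higher and -0.10 in the lower members, against -0.03 over all transcripts. The sets chosen without recovery replicate 3 gave -0.01 and 0.05, and the higher set chosen without control replicate 2 gave 0.03. For acute over control the members had medians of 0.01 and 0.04, against 0.03 over all transcripts. The sets chosen with 1 library left out gave medians of either sign, for higher and for lower transcripts.

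No member passed the threshold between these groups in edgeR's quasi-likelihood test fitted to all 40943 transcripts with enough counts. At an adjusted p under 0.05 it called 0 transcripts, members or not (0% of the 40943 in each contrast). The contrasts were sustained minus control, acute minus control and sustained minus acute. In the same order DESeq2 called 15, 3 and 23 transcripts, 0 of them members. With so few calls over all transcripts, their absence among the members is no result about the members. In edgeR an unadjusted p under 0.05 was found for 4 of 110 members for sustained minus control (3.64%, against 4.44% or 1819 of all tested). It was found for 3 for acute minus control (2.73%, against 3.9% or 1596) and for 4 for sustained minus acute (3.64%, against 4.99% or 2044). These shares are near those of all transcripts and are no result about the members. For recovery minus the mean of the other groups, the contrast that the rule used, edgeR called 0 of the 40943 (0%) and DESeq2 called 2 transcripts; this gives the background only and is no test of the members.

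The member with the smallest p for sustained minus control was TRINITY_DN182443_c0_g6_i1, with a log2 difference of -1.57 ± 0.55 (SE) and an edgeR adjusted p of 0.98. Its control libraries were at 1.32, 7.28 and 1.49 CPM, its acute libraries at 1.38, 1.45 and 1.95 CPM, its sustained libraries at 0.80, 1.27 and 1.1 CPM and its recovery libraries at 0.73, 0.70 and 0.77 CPM. For sustained minus acute it was TRINITY_DN185877_c0_g28_i2, with a log2 difference of -0.92 ± 0.34 (SE) and an edgeR adjusted p of 0.94. This transcript was at 3.52, 3.27 and 1.83 CPM in the acute libraries, at 1.43, 1.49 and 1.59 CPM in the sustained and at 1.27, 1.28 and 1.2 CPM in the recovery libraries. For acute minus control it was TRINITY_DN175267_c2_g4_i4, described above, with a log2 difference of -0.76 ± 0.31 (SE) and an edgeR adjusted p of 0.99.

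The other transcripts of the members' genes were then examined. Another transcript of the same assembled gene with at least 1 CPM existed for 11 of the higher and 23 of the lower members. The summed level of these other transcripts was lower in recovery than in the other libraries for 21 of the 23 lower members (91.3%), with a median log2 ratio of -0.28. It was higher in recovery for 6 of the 11 higher members (54.5%), with a median of 0.04. Over all 9917 transcripts with such a partner the partners were lower in recovery in 49.6%. For the 472 transcripts with a recovery mean at least 1.5-fold lower but overlapping libraries the share was 70.1%, with a median of -0.19. For the 189 transcripts at least 1.5-fold higher but overlapping, the partners were higher in 63.0%, with a median of 0.07, which is above the 54.5% and 0.04 of the higher members. No test was made of these shares, and how reads that fit several transcripts were counted is not known here.

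The partner of TRINITY_DN168883_c0_g1_i1 was at 123 CPM in recovery and 187 CPM in the other 9 libraries on average, a log2 ratio of -0.61 beside -0.99 for the member. The lowest ratio of a partner was -0.83, for TRINITY_DN193447_c3_g10_i2, itself at -1.31. In the opposite direction, the partner of TRINITY_DN167017_c0_g1_i3 was at 11.9 CPM in recovery and 6.89 CPM elsewhere, a log2 ratio of 0.78, while the member was lower at -0.70, and the member's share of the gene's level was 80.7% in recovery and 92.1% elsewhere. For the higher member TRINITY_DN183875_c1_g1_i7 the partner was lower in recovery, at 3.68 against 4.60 CPM, and the gene's summed level had a log2 ratio of -0.02. Apart from TRINITY_DN168883_c0_g1_i1, these transcripts were picked after their values were seen. The summed level of the gene was itself set apart at 1.5-fold for 0 of the 11 higher and 3 of the 23 lower members.

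**Figure D5:**
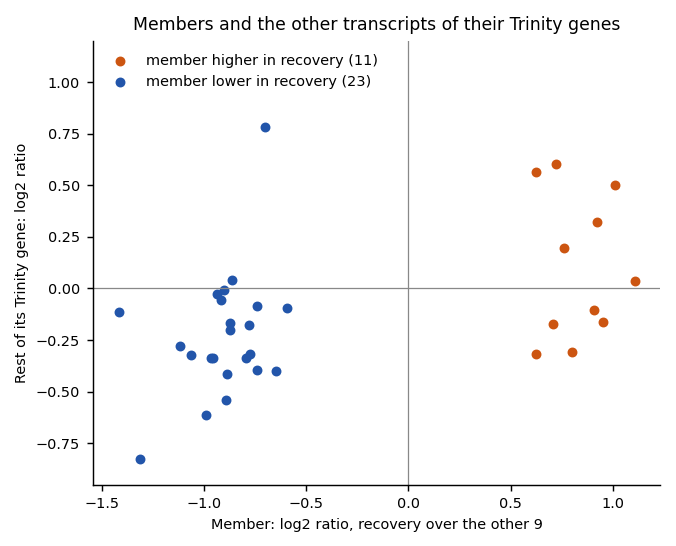
Log2 ratio of recovery over the other 9 libraries for members (horizontal) and for the summed other transcripts of the same assembled gene (vertical, 0.1 CPM added), for the 11 higher (orange) and 23 lower (blue) members with such a partner at 1 CPM or more. For the lower members 21 of 23 partners lie below 0, and for the higher members 6 of 11 lie above 0.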

How the data were processed

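RNA of whole adults was sequenced as stranded mRNA libraries with paired-end reads, per the labels' protocols. The authors deposited raw counts per assembled transcript. The submitters' processing notes name edgeR, HTSeq 0.6.1, TopHat2 2.1.1 and Trim Galore 0.4.1, with no order; the assembly and the counting options were not given in the sources used here. Columns were matched to groups by sample title. Replicates are numbered in accession order, and the variance between replicate counts was 11.5 to 36.8 times that of counting noise (chi-square per degree of freedom). Members and lists were chosen with earlier results of these data known. Named transcripts were the 5 largest ratios, 4 highest means and 4 widest gaps in each direction, the 2 nearest the fold limit on each side, and the smallest p of each tested contrast; others were named after their values were seen. CPM and ratios were computed in Python 3.11.15 with pandas 2.3.3. Tests used edgeR 4.0.16 in R 4.3.3 (quasi-likelihood, TMM, minimum count 10, minimum total 15, 4 group means, 8 residual degrees of freedom, Benjamini-Hochberg adjustment over 40943 transcripts); DESeq2 1.42.0 was an alternative. The edgeR script was checked on simulated data, where only the larger planted changes had to be recovered, so the check does not cover small folds. Each standard error is the size of the log2 difference over the root of its F statistic. P-values set a group difference against the spread between replicates, which nothing pairs across groups. Poisson intervals cover counting error only.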

Additional observations from a re-analysis of the deposited data

How the results depend on the processing

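Counts are given as higher and lower transcripts in recovery, acute, sustained and control, in that order. A limit of 2-fold gave 9 and 26, 8 and 33, 8 and 37, and 12 and 46. No limit on the fold gave 86 and 87, 168 and 134, 96 and 113, and 55 and 104. A minimum of 5 CPM gave 5 and 20, 18 and 28, 7 and 13, and 5 and 25, and no minimum gave 81 and 117, 107 and 137, 129 and 118, and 68 and 142. A minimum of 0.5 CPM raised the higher transcripts to 62 in recovery and 86 in sustained. Totals that include TRINITY_DN157064_c6_g3_i1 gave 0 and 474, 167 and 6, 8 and 28, and 72 and 1. The 474 lower transcripts chosen in this way, which are not the members, had a median of -0.26 for sustained over acute. Counts summed by assembled gene gave 40 higher in acute. Of the members, 34 of 40 and 66 of 70 met the rule under both TMM and RLE factors. The median of the other 9 libraries in place of their mean, an alternative chosen after the data were seen, left 36 and 61.

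Leaving out each library in turn gave 42 to 241 higher and 75 to 429 lower in recovery, 76 to 658 and 91 to 752 in acute, 61 to 504 and 74 to 383 in sustained, and 42 to 274 and 85 to 486 in control, the highest always without a library of the group itself. Of the members, 26 of 40 and 53 of 70 met the rule in all 12. A library left out could not undo a member's separation, so only the limits of 1 CPM and 1.5-fold could fail. The medians below were taken over the transcripts that the rule chose anew under each setting, not over the members. With 1 library left out they ranged from -0.0572 to 0.236 (higher) and -0.185 to 0.088 (lower) for sustained over control. For acute over control the ranges were -0.0923 to 0.157 and -0.118 to 0.173. For sustained over acute the higher transcripts gave -0.0081 to 0.29. Without a minimum level the medians of the higher transcripts were 0.0067 for sustained over control and -0.0621 for acute over control. With 5 CPM they were 0.11 for acute over control and -0.0214 for sustained over acute. Thinning, in which the abundant transcript was part of the draw, gave -0.0203 for sustained over control and 0.0241 for sustained over acute.

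DESeq2 called 15 transcripts for sustained minus control, 3 for acute minus control, 23 for sustained minus acute and 2 for recovery minus the others. None of them was a member, which at so few calls is no result about the members. Without control replicate 2 edgeR called 1 for acute minus control and 1 for sustained minus acute, again no member, and 0 without any other library. Members with an unadjusted p under 0.05 numbered 2 to 7 for sustained minus control, 2 to 6 for acute minus control and 0 to 7 for sustained minus acute over the libraries left out; they were 0 for acute minus control with library totals alone and 2 for sustained minus acute in a fit of those 9 libraries. The 32 named transcripts had 512 alternative ratios, of which 77 moved by more than 1 SD and 0 changed sign. The SD was that of the log2 ratio over the recovery libraries, a spread that the rule favours to be small. Leaving out 1 library could not change a sign, because all recovery libraries of each named transcript lay beyond all the others. No paired analysis was possible because replicate numbers follow the accession order and pair nothing. The cause of these changes was not tested. For 106 of the 110 members the counting intervals of the nearest libraries overlapped, which was not counted for the sets of the other groups.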
